A study of Mus musculus with 40 samples.

Results

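Ischaemia-reperfusion injury (IRI) stops the blood supply of the kidney and then restores it. Whole kidneys of C57BL/6 mice collected 24 h after IRI were set against Control kidneys of the same time course by RNA sequencing. The comparison used the 4 IRI 24 h libraries and the 4 Control libraries, 8 of the 40 samples of the series, chosen by their labels. All groups named here carried the genotype C57bl/6-wt, and the labels of the Control libraries give no treatment. Libraries of 3 other groups, 4 in each, served as points of comparison. They were the IRI 6 h kidneys of the same time course, sham kidneys taken 24 h after surgery without ischaemia, and kidneys without surgery from the sham arm, called sham-arm controls here. Both sham groups were deposited in a table of their own. The treatment tag of the sham 24 h libraries reads IRI, while their source label says that there was no ischaemia, and the source label was followed. The sources used here give no age, sex or time of ischaemia. Nor do they say whether the numbered libraries came from separate animals, so p-values measure the spread between libraries, which may be technical only.

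The kidney's proximal tubule reabsorbs most of what the glomerulus filters, and its straight S3 segment in the outer medulla, with the neighbouring thick ascending limb, lives close to the limit of its oxygen supply. When blood flow stops and returns, these cells lose ATP, detach or die, and survivors drop their transport machinery, take on an injured state marked by keratins and SOX9, and signal to leukocytes and neighbouring cells. At 24 h a mouse kidney is near the peak of functional loss, and the transcriptome mixes lost segments, stress programmes and early repair. In such bulk tissue, fewer cells of a type and less RNA per cell cannot be told apart.

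The sum of analysed counts per library lay between 6694847 and 13514892 in IRI 24 h and between 14924564 and 16323610 in Control, and the first principal component of the 8 libraries, 94.2% of the variance of the 500 most variable genes, separated the groups. Mitochondrial ribosomal RNA took 1.58% to 2.01% of counts at 24 h, against 0.181% to 0.221% in Control, and the centrosome gene Cep85 took 0.933% to 1.0%, against 0.0107% to 0.0136%. A set of 93 names was left out, 74 of them because their Control counts disagreed between the deposited tables. The others were left out because they stood in 1 table, were repeated or shared their counts with another name. Together they held 22.8% to 32.6% of counts at 24 h, against 16.7% to 19.8% in Control. Among these names were the injury markers Havcr1 and Lcn2, the cytokine Il6 and the superoxide dismutases Sod1 and Sod2, for which no value is given. The Control libraries differed in adrenal tissue: the summed level of 6 adrenal cortex genes was between 5.46 and 6.4 CPM at 24 h (CPM is the count of a gene scaled to the total of its library), against between 7.83 and 272.9 CPM in Control, highest in Control libraries 1 and 4. IRI 24 h and Control libraries also stood apart in 3 transcripts that are not markers of injury. Snhg20, a small nucleolar RNA host gene, was at 92.5, 81.3, 71.3 and 82.6 CPM at 24 h, against 6.89, 5.99, 4.16 and 4.41 CPM in Control (log2 fold change 3.93 ± 0.19, adjusted p = 3.7e-12, or −0.04 with the sham-arm controls, adjusted p = 0.8). Firre, a long noncoding RNA, behaved likewise (3.68 ± 0.21, or −0.68 with the sham-arm controls), as did Lgals4, a galectin of the gut (4.0 ± 0.24, or −0.57 with the sham-arm controls). All 3 were low at 6 h as well, so a difference in how the libraries were made cannot be told apart from the 24 h group. For that reason a second value, with the sham-arm controls in place of Control, is given below for some single genes. These are genes whose log2 fold change changed by over 1.5 times on the log2 scale, or whose call was lost. A value given alone can still differ in fold. Kl, for instance, was at −3.86, or −2.65 with the sham-arm controls, and Cdkn1a at 2.92, or 4.23 with them. The gene groups are given with the number of calls kept.

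Of 16647 genes tested, 41.9% differed between IRI 24 h and Control at an adjusted p under 0.05, here termed called, with 21.8% of genes higher and 20.2% lower. At least 2-fold differences were called upward for 15.1% and downward for 13% of genes, and the ranges of the 4 and 4 libraries did not overlap for 65.5%. The median log2 fold change of all genes was 0.05, with quartiles at −0.71 and 0.91. The count of calls depended on which libraries shared the estimate of spread: 6982 genes were called here, and 11262 without the 48 and 72 h libraries. These shares are the background for the gene groups that follow, since any group would hold many called members in this comparison. IRI 24 h was also set against the sham-arm controls in place of Control, in a fit of those libraries alone. There 57.5% of 16726 genes were called, 27.9% higher and 29.5% lower. Of the calls against Control, 65.8% of the 3626 rises and 65.3% of the 3356 falls were called in the same direction there, here termed kept, and 336 rises and 135 falls were called in the opposite one. Of the 16647 genes, 15909 were tested there, and a call on a gene not tested counts as not kept. A fit of IRI 24 h and Control alone called 11563 of 15887 genes. Numbers of calls with the sham-arm controls therefore differ from those against Control in the fit as well as in the controls. Values are CPM after TMM scaling, fold changes are on the log2 scale of IRI 24 h over Control, and ± after a fold change is its standard error.

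**Figure D1:**
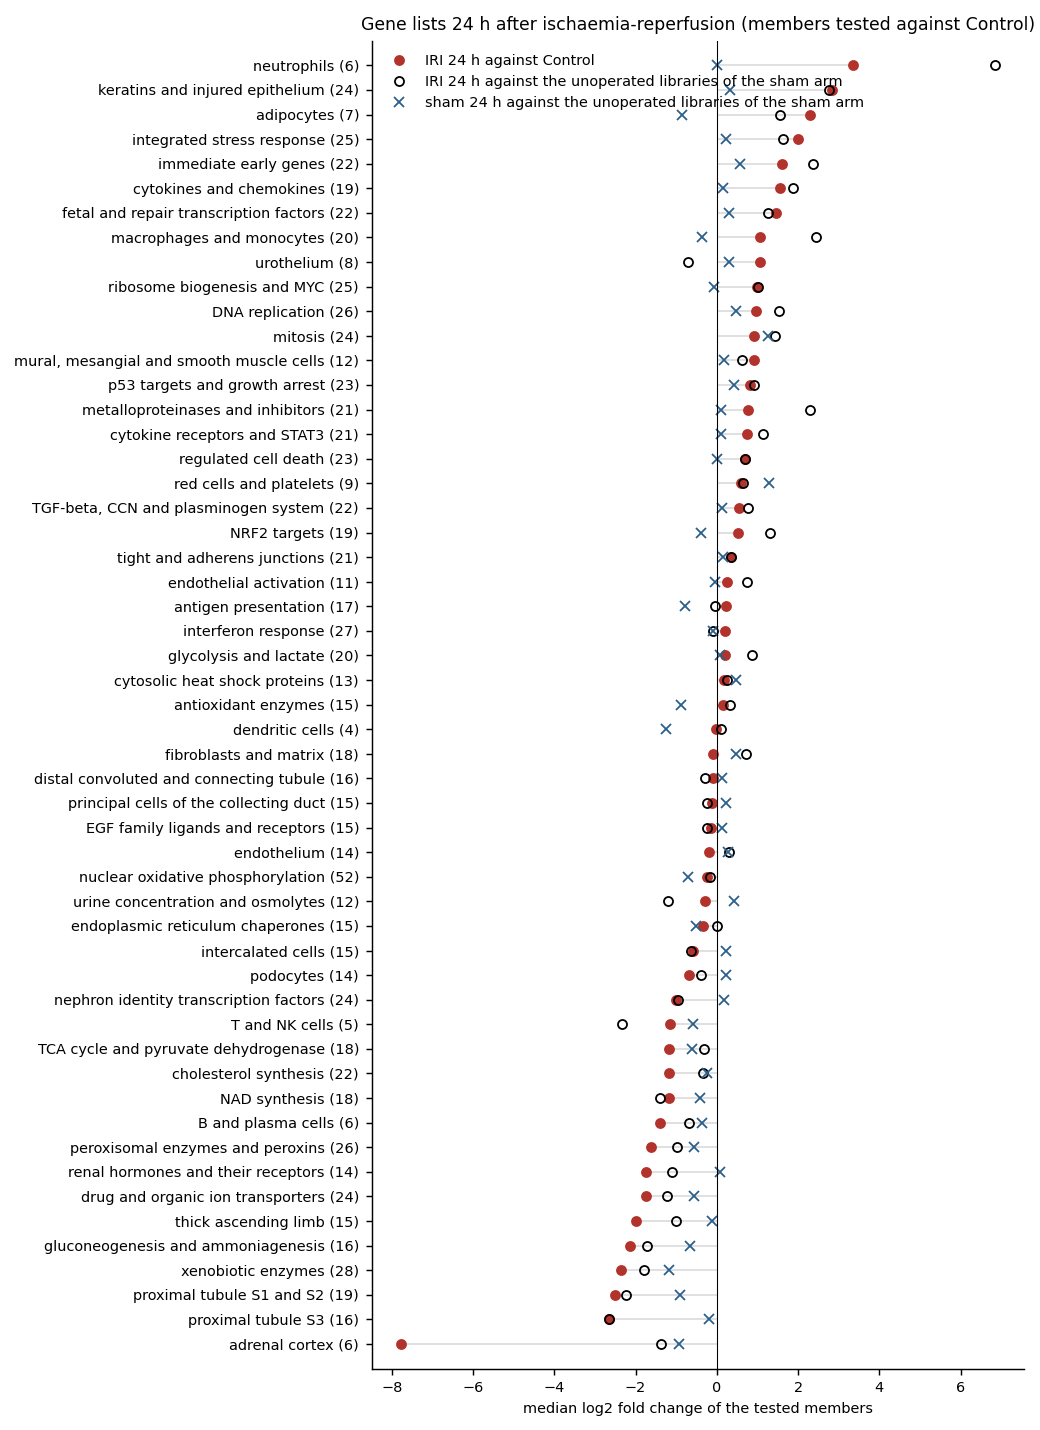
Median log2 fold change of the tested members of each of 53 gene lists, for IRI 24 h against Control (filled circles), IRI 24 h against the sham-arm controls (open circles) and sham 24 h against the sham-arm controls (crosses), with the number of members tested in parentheses. Proximal tubule lists lie at −2.52 and −2.67 and the keratin list at 2.83, and the open circles lie close to the filled ones for these lists but not for the neutrophil, urothelium and adrenal lists.

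The proximal tubule lost transcripts along its whole length. All 19 tested S1 and S2 markers fell (median −2.52) and all 16 tested S3 markers fell (median −2.67), beside 20.2% of all genes. With the sham-arm controls 19 and 14 of these falls were kept. The S3 marker Cyp4a14, a fatty acid hydroxylase, was called higher there, and Slc7a12 was not tested. Summed over the S1 and S2 list, the level was between 1881 and 3587 CPM at 24 h, against between 16614 and 20409 CPM in Control. Slc3a1, the heavy subunit of the cystine and dibasic amino acid transporter, was at 25.1, 17.4, 28.6 and 22.5 CPM at 24 h, against 497, 617, 666 and 525 CPM in Control (log2 fold change −4.62 ± 0.26, adjusted p = 1.7e-11, or −1.93 with the sham-arm controls). The groups did not overlap. Slc5a12, a lactate transporter of the early tubule, fell by a similar amount (−4.38 ± 0.44).

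In the S3 segment, Slc22a7, the organic anion transporter OAT2, was at 22.2, 12.8, 13.2 and 13.0 CPM at 24 h, against 444, 544, 559 and 440.0 CPM in Control (log2 fold change −5.03 ± 0.28, adjusted p = 1.3e-11). Slc7a13, which carries aspartate, glutamate and cystine, was at 31.7, 21.0, 31.2 and 33.8 CPM at 24 h, against 1100.3, 1233, 1219 and 1057 CPM in Control (log2 fold change −5.29 ± 0.37, adjusted p = 1.9e-10). Every 24 h library lay far below the lowest Control library for both. Slc22a13, a urate and nicotinate carrier, showed the largest fall of the list (−5.81 ± 0.49), and Slc2a5, the fructose transporter GLUT5, was also among the 12 largest falls of the whole comparison (−4.94 ± 0.48). The brush border protease meprin beta, encoded by Mep1b, was at 13.1, 9.35, 8.30 and 9.46 CPM at 24 h, against 264, 313, 319 and 262 CPM in Control (log2 fold change −4.86 ± 0.38, adjusted p = 8.1e-10).

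Genes of drug and organic ion transport mostly followed the same direction. Of 24 drug and organic ion transporters tested, 17 fell and 4 rose (median −1.75), and all 17 falls and 2 of the rises were kept with the sham-arm controls. Abcc1 was not called there and Abcc5 was called lower. Without Control library 1 or 3 the 4 rises became 1. Slco1a1, an organic anion uptake carrier of the brush border, was at 61.3, 17.9, 24.5 and 36.6 CPM at 24 h, against 395, 447, 469 and 392 CPM in Control (log2 fold change −3.61 ± 0.44, adjusted p = 5.4e-07, or −1.92 with the sham-arm controls). The basolateral efflux pump Abcc3, which exports conjugated organic anions, went the other way, at 22.9, 31.6, 30.5 and 30.3 CPM at 24 h, against 2.81, 3.24, 3.05 and 5.46 CPM in Control (log2 fold change 2.98 ± 0.35, adjusted p = 2.8e-07, or 1.44 with the sham-arm controls). Of 28 xenobiotic enzymes, 22 fell and 2, the glutathione transferases Gsta2 and Gsta4, rose (median −2.36), with 19 falls and both rises kept. The glycosyltransferase gene Ugt3a1 was at 17.7, 10.9, 12.8 and 12.7 CPM at 24 h, against 369, 411, 419.8 and 362 CPM in Control (log2 fold change −4.86 ± 0.38, adjusted p = 7.6e-10). Cyp2j5, a P450 that makes epoxides from arachidonic acid, was lower as well (−3.63 ± 0.31, or −2.35 with the sham-arm controls).

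In the thick ascending limb, which drives urinary concentration and reabsorbs magnesium and calcium, 11 of 15 tested markers fell and 2 rose (median −2.0). Of these, 9 falls and neither rise were kept with the sham-arm controls, and the median was −1.02. Cldn14, 1 of the 2 rises, was not tested there. Slc12a1, the sodium-potassium-chloride cotransporter blocked by furosemide, was at 60.4, 62.6, 62.8 and 61.4 CPM at 24 h, against 1211, 1056, 1004 and 1227 CPM in Control (log2 fold change −4.19 ± 0.33, adjusted p = 8.3e-10). The 24 h libraries were nearly identical in this gene and all below every Control library. Casr, the calcium-sensing receptor, was at 3.12, 1.67, 2.27 and 2.67 CPM at 24 h, against 30.6, 33.5, 36.8 and 31.0 CPM in Control (log2 fold change −3.76 ± 0.86, adjusted p = 0.0011, or −1.60 with the sham-arm controls). The tight junction genes Cldn16 and Cldn19, whose products form the magnesium-permeable pore of this segment, were not called. The summed level of the list was between 620.4 and 944 CPM at 24 h, against between 5837 and 6283 CPM in Control, but it was only between 2213 and 2734 CPM in the sham-arm controls, so the size of the fall depends on which unoperated kidneys it is set against.

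The distal segments changed less and in both directions. Of 16 markers of the distal convoluted and connecting tubule, 6 fell and 1 rose (median −0.10), and the thiazide-sensitive cotransporter Slc12a3 was not called. Kl, which encodes klotho, the co-receptor of the phosphate hormone FGF23, was at 63.2, 43.9, 71.6 and 69.9 CPM at 24 h, against 781, 943, 1078 and 812 CPM in Control (log2 fold change −3.86 ± 0.30, adjusted p = 9.1e-10). The calcium-binding proteins of this region fell too, with Calb1, calbindin, at 30.5, 35.6, 84.2 and 69.6 CPM at 24 h, against 281, 331, 319.7 and 271 CPM in Control (log2 fold change −2.44 ± 0.33, adjusted p = 2.7e-06, or −1.08 with the sham-arm controls) and Pvalb, parvalbumin, changing by −3.93 ± 0.84, or −1.87 with the sham-arm controls. The groups did not overlap in Kl or Calb1. With the sham-arm controls 5 of the 6 falls were kept, Wnk4, the gene that rose, was called lower, and the median was −0.30.

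In the collecting duct, 6 of 15 principal cell markers were called higher and 1 lower against Control, beside 21.8% higher among all genes, but only 1 of the 6 was kept with the sham-arm controls. Fxyd4, a regulator of the sodium pump, was that gene, at 197, 297, 179 and 191 CPM at 24 h, against 48.5, 44.6, 36.2 and 38.8 CPM in Control (log2 fold change 2.36 ± 0.22, adjusted p = 1.1e-08, or 0.71 with the sham-arm controls). The transcription factors Elf5 (2.44 ± 0.36, or 0.03 with the sham-arm controls, adjusted p = 0.9) and Gata3 (1.53 ± 0.21, or 0.16 with the sham-arm controls, adjusted p = 0.33) were not called against the sham-arm controls. Among 15 intercalated cell markers, which serve acid and base transport, 6 fell and 3 rose, and all 6 falls and 2 of the rises were kept. Slc4a1, the anion exchanger AE1 of acid-secreting cells, was at 9.22, 4.48, 3.12 and 5.45 CPM at 24 h, against 44.0, 54.5, 53.5 and 47.8 CPM in Control (log2 fold change −3.18 ± 0.42, adjusted p = 3.6e-06). The transporter Slc4a9 of the base-secreting type was higher than in Control but lower than in the sham-arm controls (2.01 ± 0.27, or −0.42 with the sham-arm controls). Car12, a carbonic anhydrase, fell (−2.28 ± 0.27). Of 12 genes of urine concentration and osmolyte handling, 5 fell and 3 rose. Against the sham-arm controls the 5 falls and 1 rise were kept, while Nfat5, the osmotic stress factor, was called lower. The 5 falls became 3 on leaving out any 1 of Control libraries 2 and 4 and IRI 24 h libraries 2, 3 and 4.

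**Figure D2:**
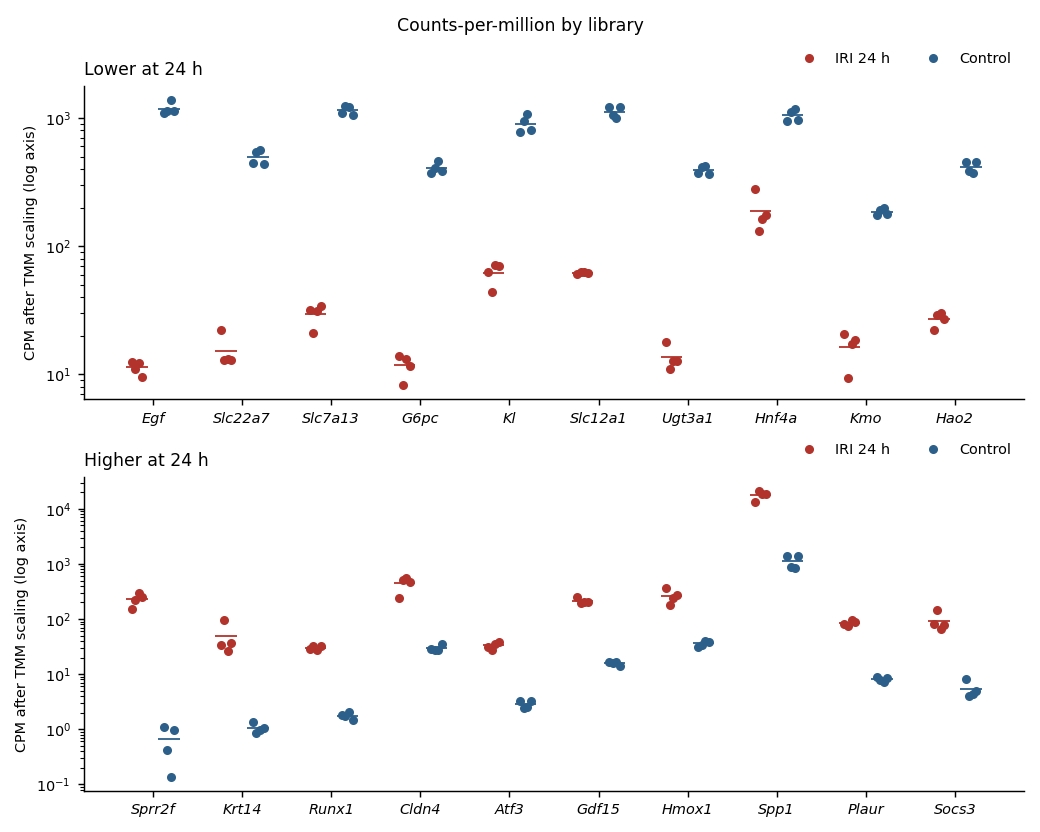
CPM after TMM scaling, on a log axis, in each IRI 24 h library (left of each pair) and each Control library (right) for 10 genes that were lower and 10 that were higher at 24 h; points are libraries and lines are means of 4. For each of the 20 genes shown, the 4 IRI 24 h libraries do not overlap with the 4 Control libraries.

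Renal hormone genes were mostly lower. Of 14 renal hormone genes and hormone receptors, 10 fell and 2 rose (median −1.74). Of these, 8 falls and both rises were kept with the sham-arm controls, where the median was −1.11. Vdr, the vitamin D receptor, was at 59.6, 39.8, 48.4 and 45.8 CPM at 24 h, against 292, 301, 336 and 309 CPM in Control (log2 fold change −2.68 ± 0.20, adjusted p = 3.6e-10). Cyp27b1, the enzyme that makes active vitamin D, ran the other way, at 52.4, 19.5, 63.4 and 44.9 CPM at 24 h, against 2.81, 6.56, 7.07 and 2.80 CPM in Control (log2 fold change 3.23 ± 0.66, adjusted p = 3.4e-04, or 1.57 with the sham-arm controls). The lowest 24 h library lay above the highest Control library. Dio1, a deiodinase that activates thyroid hormone, fell (−3.62 ± 0.65).

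Among the other cells of the kidney, podocyte markers were mostly not called against Control, where 2 of 14 fell and none rose. The fall of Podxl, podocalyxin, was lost with the sham-arm controls (−1.43 ± 0.24, or −0.26 with the sham-arm controls, adjusted p = 0.19). These counts depended on the fit. With the sham-arm controls 6 of the 14 were lower and 3 higher, and a fit of IRI 24 h and Control alone gave 8 and 2. Leaving out any 1 library of the comparison left 1 fall. Endothelial markers divided. Nos3, the endothelial nitric oxide synthase, was at 48.0, 38.4, 44.0 and 48.1 CPM at 24 h, against 8.04, 7.61, 7.35 and 8.25 CPM in Control (log2 fold change 2.51 ± 0.36, adjusted p = 4.8e-06). Sox17, a factor of arterial endothelium, was at 63.2, 68.3, 51.6 and 63.2 CPM at 24 h, against 7.59, 7.68, 7.0 and 9.58 CPM in Control (log2 fold change 2.95 ± 0.24, adjusted p = 1.6e-09, or 0.93 with the sham-arm controls). Plvap, the diaphragm protein of fenestrated capillaries, was at 33.9, 50.2, 99.5 and 81.3 CPM at 24 h, against 251, 268, 251 and 264 CPM in Control (log2 fold change −1.96 ± 0.30, adjusted p = 1.3e-05, or −0.86 with the sham-arm controls). Pecam1 and Cdh5, which mark all endothelium, were not called. In all, 4 of 14 members rose and 2 fell, beside 21.8% higher and 20.2% lower among all genes. All 6 calls were kept. In a separate list of endothelial activation, 2 of 11 tested members rose and 1 fell (median 0.26), and both rises were kept. With the sham-arm controls 6 of the 11 were higher and 2 lower. Edn1 of that list, the vasoconstrictor endothelin, rose (3.55 ± 0.34, or 2.36 with the sham-arm controls). Esm1, a protein secreted by endothelium, was called lower against Control and not against the sham-arm controls (−3.00 ± 0.46, or 0.12 with the sham-arm controls, adjusted p = 0.73).

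Of 12 mural and smooth muscle markers, 6 rose and 2 fell, with all the rises and 1 fall kept. The contractile actin gene Acta2 was at 254, 325, 391 and 366 CPM at 24 h, against 69.4, 66.0, 65.5 and 69.5 CPM in Control (log2 fold change 2.30 ± 0.34, adjusted p = 8.1e-06). Fibroblast and matrix genes were divided, with 4 of 18 higher and 5 lower, beside 21.8% higher and 20.2% lower among all genes. The 4 rises and none of the 5 falls were kept with the sham-arm controls, where Col15a1, one of the 5, was called higher and the median of the list was 0.73. The elastic fibre gene Fbln5 was one of those 5 (−2.02 ± 0.18, or −0.25 with the sham-arm controls, adjusted p = 0.22).

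Macrophage and monocyte markers rose in 10 of 20 cases and fell in 1 (Csf1r), with all 11 calls kept. Spp1, osteopontin, was at 13381, 20742, 18725 and 18247 CPM at 24 h, against 1422, 877, 835 and 1383 CPM in Control (log2 fold change 3.98 ± 0.27, adjusted p = 1.8e-10). It is made by injured tubule as well as by macrophages, and it dominates the summed level of the list. The integrin gene Itgam, shared by monocytes, macrophages and neutrophils, was at 5.95, 9.99, 16.0 and 15.4 CPM at 24 h, against 1.08, 0.705, 0.416 and 0.839 CPM in Control (log2 fold change 3.94 ± 0.65, adjusted p = 3.0e-05). Chil3, a lectin of activated macrophages, was at 19.0, 31.5, 20.4 and 22.2 CPM at 24 h, against 0.893, 0.493, 1.18 and 1.19 CPM in Control (log2 fold change 4.61 ± 0.53, adjusted p = 2.4e-07). The macrophage markers Adgre1, C1qa and C1qb were not called against Control. With the sham-arm controls 17 of the 20 markers were called higher and 1 lower. The median of the list was 2.43 there and 1.06 against Control. Neutrophil markers rose in 5 of 6 tested cases, but at low levels: the list summed to between 27.1 and 65.1 CPM at 24 h, against between 3.03 and 5.67 CPM in Control. S100a8, a subunit of calprotectin, was at 8.78, 19.7, 6.67 and 5.86 CPM at 24 h, against 0.766, 0.211, 0.832 and 1.47 CPM in Control (log2 fold change 3.62 ± 0.74, adjusted p = 3.7e-04). Its partner S100a9 was at 8.78, 23.8, 9.57 and 8.53 CPM at 24 h, against 1.66, 1.20, 1.11 and 1.96 CPM in Control (log2 fold change 3.08 ± 0.74, adjusted p = 0.0017). Library 2 was the highest of the 24 h group for both. Against the sham-arm controls Chil3, S100a8 and S100a9 were called higher as well, but no fold is given, since Chil3 was at 0 in all 4 of those libraries and the others were at 0 in most of them. None of the 5 T and NK cell markers and 4 dendritic cell markers tested was called, and a further 10 and 5 were too low to test. The tested T and NK markers summed to between 2.83 and 4.22 CPM at 24 h, against between 4.64 and 8.32 CPM in Control. With the sham-arm controls 2 of 3 T and NK markers and 1 of 4 dendritic cell markers were called lower.

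Genes of antigen presentation on MHC class II fell while parts of the class I pathway rose. Cd74, the invariant chain, was at 53.2, 72.3, 90.8 and 84.4 CPM at 24 h, against 192, 223, 240.0 and 209 CPM in Control (log2 fold change −1.52 ± 0.37, adjusted p = 0.0018, or −0.76 with the sham-arm controls), and the class II chains H2-Aa (−1.88 ± 0.51, or −1.03 with the sham-arm controls) and H2-Ab1 (−1.85 ± 0.36, or −1.09 with the sham-arm controls) fell alike, whereas H2-K1, Tap2, Psmb8 and Psmb10 rose. All 8 calls of the 17 genes were kept with the sham-arm controls. Of 9 red cell and platelet genes, the platelet genes Pf4, Ppbp, Gp9 and Itga2b rose, but Itga2b was called lower against the sham-arm controls. Pf4, platelet factor 4, was at 18.9, 19.3, 16.2 and 17.7 CPM at 24 h, against 2.30, 1.55, 1.39 and 2.73 CPM in Control (log2 fold change 3.17 ± 0.57, adjusted p = 8.8e-05). None of the 5 globin and haem genes of red cells was called.

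Fat cell markers were also higher, with 4 of 7 called upward and all 4 kept. The list summed to between 1783 and 3578 CPM at 24 h, against between 433 and 648 CPM in Control. Fabp4, a fatty acid binding protein of adipocytes, endothelium and macrophages, was at 1537, 842, 1455 and 1372 CPM at 24 h, against 302, 194, 172 and 263 CPM in Control (log2 fold change 2.48 ± 0.28, adjusted p = 2.2e-07). The hormone adiponectin, encoded by Adipoq, was not called. The part of fat adhering to the kidneys in these values was not tested. Markers of urothelium, the lining of the renal pelvis, stood at between 148 and 415 CPM at 24 h, against between 56.2 and 60.5 CPM in Control, with 4 of 8 called higher. The sham-arm controls summed to between 141 and 203 CPM, and against them 2 of the 8 were called higher and 5 lower, with a median of −0.71. Among the 4 rises over Control were 2 basal keratins that injured tubule can also make: Krt5 was at 64.8, 168, 47.9 and 62.9 CPM at 24 h, against 4.53, 3.81, 2.43 and 5.6 CPM in Control (log2 fold change 4.39 ± 0.51, adjusted p = 3.2e-07, or 2.57 with the sham-arm controls). Krt14 was at 34.2, 98.0, 26.6 and 36.1 CPM at 24 h, against 1.34, 0.846, 0.970 and 1.05 CPM in Control (log2 fold change 5.51 ± 0.66, adjusted p = 4.2e-07). Both were highest in library 2 of the 24 h group. The uroplakins Upk1a, Upk2, Upk3a and Upk3b, which define the mature lining, were not called. Of the 4 rises only those of Krt5 and Krt14 were kept with the sham-arm controls, and Psca was called lower there.

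Metabolic genes of the proximal tubule fell as groups. The kidney makes NAD from tryptophan, and 12 of 18 genes of NAD synthesis fell while 1, the nicotinamide methyltransferase Nnmt, rose (median −1.19). The rise and 11 falls were kept, and Nadk was called higher against the sham-arm controls. Kmo, kynurenine monooxygenase, was at 20.5, 9.35, 17.2 and 18.5 CPM at 24 h, against 175, 192, 198 and 178 CPM in Control (log2 fold change −3.50 ± 0.32, adjusted p = 1.0e-08). Acmsd, which diverts an intermediate away from NAD, fell as much (−3.55 ± 0.45), as did the tryptophan dioxygenase Ido2 (−4.29 ± 1.05). Of 26 peroxisomal enzymes and assembly factors, 23 fell and none rose (median −1.63), with 20 falls kept and a median of −0.98 with the sham-arm controls. Hao2, a hydroxyacid oxidase, was at 22.0, 29.0, 30.3 and 27.0 CPM at 24 h, against 454, 385, 369 and 455 CPM in Control (log2 fold change −3.94 ± 0.40, adjusted p = 3.7e-08). Acox2 of bile acid and branched fat oxidation fell (−3.57 ± 0.33, or −2.19 with the sham-arm controls), and Ehhadh, the bifunctional enzyme of peroxisomal beta-oxidation, fell (−3.11 ± 0.33, or −1.63 with the sham-arm controls).

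Genes of glucose production and ammonia handling were mostly lower, with 13 of 16 down and 1 up (median −2.13). The rise and 11 of the falls were kept. G6pc, glucose-6-phosphatase, which releases free glucose, was at 14.0, 8.20, 13.1 and 11.5 CPM at 24 h, against 373, 408, 463 and 383 CPM in Control (log2 fold change −5.12 ± 0.28, adjusted p = 1.4e-11). Fbp1, fructose bisphosphatase, was at 146, 117, 191 and 176 CPM at 24 h, against 1148, 1304, 1361 and 1103 CPM in Control (log2 fold change −2.96 ± 0.20, adjusted p = 1.0e-10, or −1.68 with the sham-arm controls). Glycerol kinase, encoded by Gk, fell (−3.50 ± 0.27), and so did Slc38a3, the glutamine carrier that feeds ammonia production (−3.20 ± 0.62). The gene that rose was Pck2, the mitochondrial phosphoenolpyruvate carboxykinase, which is also a target of the stress factor ATF4, while the cytosolic Pck1 fell.

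All 18 tested genes of the tricarboxylic acid cycle and the pyruvate dehydrogenase complex were called lower against Control (median −1.18), but 10 of these calls were kept with the sham-arm controls, where the median was −0.33. Pdha1, the catalytic subunit of pyruvate dehydrogenase, was at 127, 118, 150.5 and 152 CPM at 24 h, against 474, 505, 521 and 476 CPM in Control (log2 fold change −1.85 ± 0.14, adjusted p = 7.5e-10, or 0.03 with the sham-arm controls, adjusted p = 0.83), and its fall therefore rests on the Control libraries. Of 20 glycolytic genes, 7 were higher and 6 lower than in Control (median 0.19). Against the sham-arm controls 13 were higher and 2 lower (median 0.87). All 7 rises and 2 of the falls were kept there, and Ldha was called higher. Among the rises was Hk2, the hexokinase of growing and hypoxic cells, at 15.8, 16.3, 14.7 and 16.6 CPM at 24 h, against 5.17, 3.60, 5.20 and 4.27 CPM in Control (log2 fold change 1.79 ± 0.42, adjusted p = 0.0014). Pfkm fell (−1.63 ± 0.34, or −0.99 with the sham-arm controls) and Pfkp rose.

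Nuclear genes of oxidative phosphorylation were divided as well: 21 of 52 fell and 10 rose (median −0.25). With the sham-arm controls 10 falls and 4 rises were kept and the median was −0.16, while Ndufb8 and Cox5a were called higher and Ndufa1 lower. Ndufs1, the largest subunit of complex I, was at 76.6, 63.7, 87.9 and 77.9 CPM at 24 h, against 322, 358, 347 and 319.7 CPM in Control (log2 fold change −2.13 ± 0.18, adjusted p = 2.0e-09, or −1.09 with the sham-arm controls). Sdhd of complex II was lower than in Control only (−1.57 ± 0.15, or 0.10 with the sham-arm controls, adjusted p = 0.62). Within the list the fold change followed transcript length (Spearman rho −0.54 across the 52 genes, which are not independent replicates): the 26 shorter genes had a median of 0.03 and the 26 longer ones a median of −0.44. With the sham-arm controls the rho was −0.21. A length trend was present across all genes. The median log2 fold change over 5 equal bins of the 13908 genes with a length, 83.5% of those tested, ran 0.27, 0.12, −0.04, −0.12 and −0.31 from the shortest to the longest, and the share of calls that were higher ran from 64.5% in the shortest to 31.5% in the longest. A trend with GC content ran from −0.22 in the poorest of 5 bins to 0.35 in the richest. The part of RNA quality or of library making in these trends was not tested, and small shifts of short or long genes carry that limit.

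**Figure D3:**
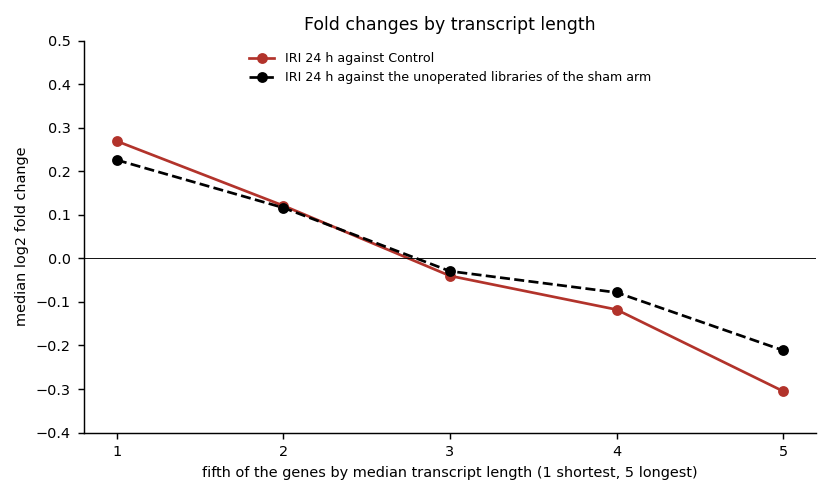
Median log2 fold change in 5 equal bins of the genes ordered by transcript length, for IRI 24 h against Control (red, solid) and against the sham-arm controls (black, dashed). Against Control the median was 0.27 in the bin of the shortest genes and −0.31 in the longest, and the trend against the sham-arm controls had the same direction.

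Cholesterol synthesis genes were lower in 13 of 22 cases and higher in 1 (median −1.19), with 9 falls and not the rise kept and a median of −0.33 with the sham-arm controls. Cyp51, lanosterol demethylase, was at 25.6, 33.9, 40.7 and 36.1 CPM at 24 h, against 394, 432, 461 and 373 CPM in Control (log2 fold change −3.60 ± 0.23, adjusted p = 7.0e-11, or −1.85 with the sham-arm controls).

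Most genes of the integrated stress response were higher. In this response, kinases that sense amino acid shortage, unfolded protein or haem deficiency phosphorylate the initiation factor eIF2alpha, and translation of the factor ATF4 rises, which switches on genes of amino acid supply and, under long stress, of cell death. Of 25 genes of the response, 20 rose and 2 fell (median 1.99), with 19 rises and both falls kept. Atf3, a factor induced by ATF4 and by many other stresses, was at 31.2, 27.8, 34.9 and 39.1 CPM at 24 h, against 3.19, 2.40, 2.56 and 3.22 CPM in Control (log2 fold change 3.54 ± 0.37, adjusted p = 6.1e-08). Trib3, a pseudokinase that feeds back on the response, was at 34.7, 19.2, 22.3 and 23.1 CPM at 24 h, against 1.47, 1.34, 1.52 and 1.61 CPM in Control (log2 fold change 4.05 ± 0.47, adjusted p = 2.7e-07). The secreted stress hormone Gdf15 was at 255, 194, 201 and 203 CPM at 24 h, against 16.7, 15.6, 16.8 and 14.1 CPM in Control (log2 fold change 3.75 ± 0.36, adjusted p = 1.5e-08). Slc7a11, which imports cystine for glutathione, was at 6.54, 4.48, 5.39 and 8.02 CPM at 24 h, against 0.319, 0.0705, 0.139 and 0.420 CPM in Control (log2 fold change 4.61 ± 0.83, adjusted p = 9.3e-05). The groups did not overlap in any of these 4 genes. The 2 that fell were Shmt2 and Vldlr.

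ATF4 binds, with C/EBP partners, to a composite element, and the list was searched for its core letters TGATGCAA on both strands in the 250 bases before each start site. The promoters are those of RefSeq on GRCm38.p6. Of 24 promoters of the list, 6 held the letters (25%), beside 0.515% of 11834 promoters of tested genes and 0.818% of all 27025 promoters. They were Atf3, Slc7a11, Chac1, Nupr1, Pycr1 and Fgf21, which were singled out after their values were seen. The 3 printed here belong to the most changed genes of the 6, with the element in capitals, in lower case otherwise and 5′ to 3′ along the gene. The Atf3 promoter lies on chromosome 1 at chr1:191183334-191183583, minus strand, with 1 match that begins 110 bases before the start. The Slc7a11 promoter lies at chr3:50443614-50443863, minus strand, with 2 matches, at 66 and 47 bases before the start. The Chac1 promoter lies at chr2:119350992-119351241, plus strand, with 1 match at 193 bases. No other searched motif overlapped these matches.
Atf3: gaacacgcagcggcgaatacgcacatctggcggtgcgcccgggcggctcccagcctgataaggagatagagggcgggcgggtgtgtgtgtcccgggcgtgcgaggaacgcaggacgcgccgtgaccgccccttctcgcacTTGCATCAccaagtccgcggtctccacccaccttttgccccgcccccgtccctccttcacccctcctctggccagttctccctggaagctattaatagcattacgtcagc
Slc7a11: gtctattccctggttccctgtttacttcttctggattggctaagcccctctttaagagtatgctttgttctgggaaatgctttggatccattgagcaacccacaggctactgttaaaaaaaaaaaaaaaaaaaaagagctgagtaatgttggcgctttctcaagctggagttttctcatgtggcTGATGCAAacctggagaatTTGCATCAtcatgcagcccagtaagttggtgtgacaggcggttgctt
Chac1: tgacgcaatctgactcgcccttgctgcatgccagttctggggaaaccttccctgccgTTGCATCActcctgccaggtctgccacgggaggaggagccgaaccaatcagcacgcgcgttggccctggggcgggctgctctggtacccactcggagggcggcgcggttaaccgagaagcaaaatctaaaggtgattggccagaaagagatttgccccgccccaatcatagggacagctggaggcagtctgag

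Chac1, which degrades glutathione, was at 14.7, 5.64, 9.57 and 10.5 CPM at 24 h, against 0.702, 0.493, 1.80 and 1.05 CPM in Control (log2 fold change 3.30 ± 0.86, adjusted p = 0.0033), and its adjusted p was 0.057 without Control libraries 1 and 4. The stress regulator Nupr1 rose (1.58 ± 0.27, or 0.53 with the sham-arm controls). Pycr1, a proline synthesis enzyme, was called narrowly (1.99 ± 0.76, or 1.21 with the sham-arm controls, adjusted p = 0.064), and its call was lost on leaving out any library of the comparison other than Control library 1. The hormone gene Fgf21 was near 0 in every library and was not called (2.74 ± 1.62, adjusted p = 0.18). A match of letters is a description of these windows and does not show binding.

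Of 15 chaperones of the endoplasmic reticulum, 6 fell and 2, Creld2 and Manf, rose (median −0.34). With the sham-arm controls 3 of the falls and the rise of Manf were kept, and 3 were higher and 3 lower in all. Herpud1, a degradation factor that unfolded protein normally induces, was at 68.7, 49.1, 90.0 and 67.3 CPM at 24 h, against 287, 332, 359 and 299.6 CPM in Control (log2 fold change −2.21 ± 0.20, adjusted p = 5.0e-09). Edem1 of the same system was lower (−1.76 ± 0.16, or −0.34 with the sham-arm controls). Among 13 cytosolic heat shock genes, 6 rose and 3 fell, and 4 rises and all 3 falls were kept. Hspb1, a small heat shock protein that protects actin, was at 426, 317, 361 and 357 CPM at 24 h, against 38.9, 36.8, 36.5 and 40.2 CPM in Control (log2 fold change 3.26 ± 0.40, adjusted p = 6.3e-07). Hspa1a and Hspa1b are near-identical copies, and their split of reads is uncertain.

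Of 19 targets of NRF2, the factor that answers oxidants, 12 rose and 2 fell, and all 12 rises and 1 fall were kept. Hmox1, haem oxygenase, was at 368, 179.6, 240.5 and 269 CPM at 24 h, against 31.6, 33.6, 39.8 and 39.0 CPM in Control (log2 fold change 2.88 ± 0.40, adjusted p = 3.6e-06). Srxn1, sulfiredoxin, was at 705, 404, 596 and 584 CPM at 24 h, against 98.6, 84.8, 90.2 and 100.2 CPM in Control (log2 fold change 2.61 ± 0.43, adjusted p = 3.0e-05). Me1, the malic enzyme, was one of the 2 that fell (−2.20 ± 0.22, or −1.26 with the sham-arm controls). The antioxidant enzymes as a group did not move one way: 2 of 15 rose and 5 fell, while against the sham-arm controls 8 were higher and 4 lower. Gpx1, the main cytosolic glutathione peroxidase, was at 589, 472, 496 and 455 CPM at 24 h, against 146, 185, 171 and 163 CPM in Control (log2 fold change 1.60 ± 0.21, adjusted p = 1.4e-06, or 0.95 with the sham-arm controls). Catalase, encoded by Cat, fell (−2.17 ± 0.18) and the secreted Gpx6 fell (−4.32 ± 0.89, or −2.1 with the sham-arm controls). The metallothionein gene Mt2, which binds zinc and copper, was at 104, 130.2, 172 and 179 CPM at 24 h, against 0.0638, 0.775, 0.139 and 1.12 CPM in Control (log2 fold change 8.12 ± 0.83, adjusted p = 4.1e-08), although metallothioneins are near-copies of each other and the value for this name is uncertain for that reason.

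Targets of p53 and genes of growth arrest rose in 12 of 23 cases and fell in 4. Of these, 11 rises and 2 falls were kept with the sham-arm controls, and Ccng1 was called higher. Cdkn1a, the cell cycle inhibitor p21, was at 121, 111, 181 and 155 CPM at 24 h, against 21.8, 11.3, 21.7 and 20.1 CPM in Control (log2 fold change 2.92 ± 0.43, adjusted p = 7.8e-06). The stress kinase gene Plk3 rose (3.08 ± 0.47). Mdm2 and Fas, well-known targets of p53, were not called. Among 23 genes of regulated cell death, 10 rose and 3 fell, with 9 rises and 2 falls kept. The pair that carries out necroptosis rose together: Ripk3, the kinase, was at 9.82, 14.6, 16.9 and 13.3 CPM at 24 h, against 0.893, 1.27, 1.25 and 0.560 CPM in Control (log2 fold change 3.77 ± 0.39, adjusted p = 4.4e-08). Mlkl, the protein that ruptures the membrane, was at 26.5, 21.9, 23.8 and 23.9 CPM at 24 h, against 3.57, 2.33, 2.43 and 2.38 CPM in Control (log2 fold change 3.16 ± 0.43, adjusted p = 2.8e-06). The 3 that fell were Bid and the mitophagy receptors Bnip3 and Bnip3l, and that of Bnip3 was lost with the sham-arm controls (−0.22, adjusted p = 0.34).

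Most genes of ribosome biogenesis were higher. Of 25 genes of ribosome biogenesis and MYC, 20 rose and 2 fell (median 0.98), and all 20 rises and 1 fall were kept with the sham-arm controls. The list summed to between 2779 and 2888 CPM at 24 h, not higher than in Control (between 2867 and 3691 CPM). Odc1, 1 of the 2 that fell, changed by −2.20, or 0.02 with the sham-arm controls, where its call was lost. Myc itself, the factor that drives ribosomal gene transcription, was at 61.6, 56.9, 51.1 and 52.4 CPM at 24 h, against 7.27, 5.57, 5.20 and 4.76 CPM in Control (log2 fold change 3.28 ± 0.28, adjusted p = 3.3e-09). Nop56 of the nucleolar methylation complex was at 144, 135, 121 and 124 CPM at 24 h, against 25.1, 22.2, 23.3 and 24.1 CPM in Control (log2 fold change 2.47 ± 0.12, adjusted p = 3.7e-12, or 1.35 with the sham-arm controls).

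Genes of the injured epithelial state rose together. Of 24 keratin and injury genes, 22 rose and none fell (median 2.83), and 21 rises were kept. Sprr2f, a small proline-rich protein of barrier epithelia, was at 153, 222, 295 and 255 CPM at 24 h, against 1.08, 0.423, 0.139 and 0.979 CPM in Control (log2 fold change 8.42 ± 0.79, adjusted p = 1.3e-08). Its neighbour Sprr2g was higher as well (7.13 ± 0.64), although these genes are near-copies and the split of reads between them is uncertain. S100a6, a calcium-binding protein of spreading cells, was at 1091, 1081, 929.6 and 948 CPM at 24 h, against 71.1, 48.9, 41.6 and 59.8 CPM in Control (log2 fold change 4.19 ± 0.29, adjusted p = 1.6e-10). The summed level of the list was between 25565 and 36345 CPM at 24 h, against between 2424 and 3284 CPM in Control.

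The binding letters of AP-1, TGANTCA, the factor made of FOS and JUN proteins, were found on either strand in the 250 bases before the start of 4 of 15 promoters of this list (26.7%), beside 4.8% of promoters of tested genes. They were those of Sprr1a, Sprr2f, Anxa2 and S100a11. The Sprr2f promoter, the gene with the largest rise, is shown with the match in capitals; it lies at chr3:92364937-92365186, plus strand, on GRCm38.p6, with the match 197 bases before the start. In the immediate early genes themselves, 17 of 22 of which rose, the letters were in 0 of 19 promoters. In all 12 pairs of a motif and a list were searched. The antioxidant response letters TGACNNNGC were in 3 of 16 promoters of NRF2 targets (18.8%), beside 12% of promoters of tested genes. The STAT letters TTCCNGGAA were in 1 of 18 promoters of cytokine receptor and STAT3 genes, the sterol response letters TCACNCCAC in 1 of 15 of cholesterol synthesis and the heat shock element in 1 of 11 of heat shock genes. Among promoters of tested genes the share was 1.02% for the STAT, 1.01% for the sterol response and 0.296% for the heat shock letters. The other 5 pairs, all with the letters of the factor HNF1, held no match in lists of 11 to 20 promoters. Only 6 of 11834 promoters of tested genes held the HNF1 letters (0.0507%). Lists of this size therefore cannot show whether these letters are rarer or more common there.
Sprr2f: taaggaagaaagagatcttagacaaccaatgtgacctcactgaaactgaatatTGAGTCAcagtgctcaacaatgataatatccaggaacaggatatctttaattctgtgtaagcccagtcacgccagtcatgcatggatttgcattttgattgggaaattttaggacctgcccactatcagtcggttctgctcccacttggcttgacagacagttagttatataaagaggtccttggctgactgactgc

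Junction genes moved singly. Over the 21 of the list, 7 rose and 4 fell, with 6 rises and 2 falls kept. The beta-catenin gene Ctnnb1, lower than in Control, was called higher against the sham-arm controls. Cldn4, which seals the distal tubule, was at 244, 511, 561 and 480.0 CPM at 24 h, against 28.7, 27.8, 27.9 and 35.7 CPM in Control (log2 fold change 3.90 ± 0.40, adjusted p = 4.8e-08). Cldn7 was at 135, 220.2, 199 and 189 CPM at 24 h, against 23.0, 22.0, 23.1 and 24.1 CPM in Control (log2 fold change 3.01 ± 0.22, adjusted p = 3.6e-10). Cldn2, the water and sodium pore of the proximal tubule, was at 96.8, 64.8, 71.2 and 74.7 CPM at 24 h, against 562, 629.9, 662 and 573 CPM in Control (log2 fold change −2.98 ± 0.16, adjusted p = 9.9e-12, or −1.40 with the sham-arm controls).

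Transcription factors of nephron identity fell, and those of fetal kidney and repair rose. Of 24 factors of nephron identity, 13 fell and 3 rose (median −1.0), with 12 falls and 1 rise kept. Of 22 fetal and repair factors 13 rose and 1 fell (median 1.46), with 12 rises and the fall kept. Hnf4a, the main factor of proximal tubule identity, was at 280.2, 132, 162 and 176 CPM at 24 h, against 949, 1114, 1174 and 967 CPM in Control (log2 fold change −2.49 ± 0.30, adjusted p = 4.3e-07, or −1.54 with the sham-arm controls). Irx1, a factor of the middle nephron segments, fell as well (−3.01 ± 0.25, or −0.97 with the sham-arm controls). Runx1, a factor of injured tubule and blood cells, was at 28.1, 31.8, 27.7 and 32.3 CPM at 24 h, against 1.79, 1.76, 2.08 and 1.47 CPM in Control (log2 fold change 4.07 ± 0.40, adjusted p = 2.5e-08). Klf5, which drives growth of epithelia, was at 30.0, 36.3, 37.9 and 35.1 CPM at 24 h, against 5.49, 6.06, 5.54 and 4.55 CPM in Control (log2 fold change 2.68 ± 0.22, adjusted p = 2.5e-09, or 1.17 with the sham-arm controls). The fetal chromatin protein gene Hmga2 rose from a low level (4.59 ± 0.94).

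Among ligands, receptors and proteases, those of growth factor signalling moved singly. In the EGF family, 3 of 15 members rose and 3 fell, near the 21.8% higher and 20.2% lower of all genes. All 6 calls were kept. The neuregulin ligand Nrg1 was at 46.6, 24.3, 32.9 and 34.6 CPM at 24 h, against 9.63, 9.94, 10.5 and 11 CPM in Control (log2 fold change 1.75 ± 0.26, adjusted p = 7.4e-06). Its receptor Erbb3 was at 51.8, 50.7, 50.8 and 43.4 CPM at 24 h, against 115, 128, 134 and 132 CPM in Control (log2 fold change −1.37 ± 0.18, adjusted p = 1.4e-06). The receptor genes Egfr and Erbb2 were not called. In the TGF-beta and plasminogen system 8 of 22 rose and 4 fell, with all the rises and 3 falls kept. The integrin gene Itgb6, lower than in Control, was called higher against the sham-arm controls. Plaur, the receptor of urokinase, was at 79.9, 73.5, 97.5 and 87.7 CPM at 24 h, against 8.99, 7.82, 7.35 and 8.39 CPM in Control (log2 fold change 3.38 ± 0.36, adjusted p = 8.0e-08). Of 21 metalloproteinases and inhibitors 8 rose and 4 fell, with all 12 calls kept. Mmp7, a protease of injured tubule, was at 7.29, 5.0, 3.90 and 4.22 CPM at 24 h, against 0, 0.141, 0.0693 and 0.280 CPM in Control (log2 fold change 5.26 ± 1.16, adjusted p = 7.4e-04). Adam8 of leukocytes and injured epithelium rose (4.70 ± 0.50).

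Cytokine genes rose in 9 of 19 tested cases and fell in 3, with all 9 rises and 2 falls kept. The chemokine gene Cx3cl1, lower than in Control, was called higher against the sham-arm controls. The cytokine Clcf1, which signals through the CNTF receptor and gp130 to STAT3, was at 143, 105, 78.0 and 98.5 CPM at 24 h, against 2.81, 3.24, 2.01 and 5.25 CPM in Control (log2 fold change 4.99 ± 0.30, adjusted p = 2.3e-11, or 2.67 with the sham-arm controls). Ccl28, a chemokine of mucosal epithelia, fell (−4.97 ± 0.71, or −2.45 with the sham-arm controls). Downstream of such signals, Socs3, the feedback inhibitor of STAT3, was at 80.3, 144, 66.3 and 78.2 CPM at 24 h, against 8.04, 4.02, 4.37 and 5.04 CPM in Control (log2 fold change 4.10 ± 0.31, adjusted p = 6.9e-10). Nfkbiz, a nuclear partner of NF-kB, was at 106, 131, 76.2 and 97.2 CPM at 24 h, against 6.32, 5.57, 3.95 and 3.99 CPM in Control (log2 fold change 4.36 ± 0.30, adjusted p = 1.5e-10, or 1.87 with the sham-arm controls). Tnfrsf12a, the receptor of the cytokine TWEAK, was at 489, 337, 445 and 443 CPM at 24 h, against 30.1, 26.4, 29.3 and 28.2 CPM in Control (log2 fold change 3.91 ± 0.34, adjusted p = 4.0e-09). The groups did not overlap in these genes. The receptor gene Lifr fell and Osmr rose, while the fall of Il6st, which encodes gp130, was lost with the sham-arm controls (−1.23, or −0.16 with the sham-arm controls, adjusted p = 0.13). Of 21 cytokine receptor and STAT3 genes, 11 rose and 3 fell, with 10 rises and 1 fall kept.

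Interferon-stimulated genes were called in 9 of 27 cases, 7 higher and 2 lower (median 0.19), beside 41.9% of all genes called in either direction. Against the sham-arm controls 6 were higher and 7 lower and the median was −0.11. Of the 7 rises 5 were kept and 1 gene was called lower, and both falls were kept. Oas2, an RNA sensor, was at 17.4, 37.2, 12.3 and 15.1 CPM at 24 h, against 1.79, 1.20, 1.87 and 0.909 CPM in Control (log2 fold change 3.81 ± 0.42, adjusted p = 1.2e-07, or 1.93 with the sham-arm controls). Ifit1 was not called. Some of the named genes encode plasma proteins that the liver makes in the acute phase, a group for which no list was drawn up. Fgb, the beta chain of fibrinogen, was at 204, 81.1, 193 and 177 CPM at 24 h, against 4.15, 1.97, 1.66 and 2.80 CPM in Control (log2 fold change 5.94 ± 0.83, adjusted p = 3.5e-06). Hp, haptoglobin, was at 1667, 1061, 1452 and 1450.1 CPM at 24 h, against 50.9, 27.4, 39.8 and 46.6 CPM in Control (log2 fold change 5.10 ± 0.71, adjusted p = 3.7e-06). The gamma chain gene Fgg rose (4.75 ± 0.64), as did the protease inhibitor Serpina3n (5.50 ± 0.76) and Lrg1, a leucine-rich glycoprotein of inflamed tissue (4.63 ± 0.53). Library 2 was the lowest of the 24 h group for Fgb, Fgg, Hp and Serpina3n.

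Against IRI 6 h, 28.8% of 16637 genes were called at 24 h, with 14.9% higher and 13.8% lower. Proximal tubule markers were lower still: 13 of 17 tested S1 and S2 markers and 11 of 16 S3 markers were below their 6 h level, and none was above it. The 6 h labels were taken as given, since no file used here checks them. Library 1 of the 6 h group stood apart from the other 3 (correlation of 0.957 to 0.965 with them on the log2 scale, against 0.991 to 0.992 among them). Without it 13 and 13 of these markers were lower. The named differences from 6 h in this and the following paragraphs kept their side of the threshold apart from that of Uhrf1. The carrier gene Slc38a3 was at 10.9, 5.38, 4.04 and 4.63 CPM at 24 h, against 65.2, 86.3, 111 and 110.2 CPM at 6 h (log2 fold change of 24 h over 6 h −3.93 ± 0.63, adjusted p = 5.3e-05). The monocarboxylate transporter Slc16a14, a gene with one of the 6 largest falls, was at 2.23, 1.54, 2.13 and 1.34 CPM at 24 h, against 20.8, 54.3, 68.3 and 63.2 CPM at 6 h (log2 fold change −4.83 ± 0.52, adjusted p = 8.7e-07). On the rising side, Cxcl1, a chemokine that attracts neutrophils, was at 182, 111, 98.9 and 136 CPM at 24 h, against 5.64, 2.39, 3.59 and 3.67 CPM at 6 h (log2 fold change 5.12 ± 0.66, adjusted p = 3.6e-06). Mt2 was higher than at 6 h in all 4 libraries (5.24 ± 0.67, adjusted p = 3.7e-06), and by 6.70 ± 0.62 without library 1 of the 6 h group. Of 22 keratin and injury genes tested against 6 h, 11 were higher at 24 h and 2 lower, or 16 and 1 without library 1 of the 6 h group.

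Cell cycle genes moved the other way. Of 24 mitosis genes, 23 were lower at 24 h than at 6 h (median −2.94) and none was higher, beside 13.8% of all genes lower, and of 26 DNA replication genes 17 were lower and none higher (median −1.08). Without library 1 of the 6 h group 23 mitosis and 18 DNA replication genes were lower. Against Control at 24 h, 8 mitosis genes and 13 DNA replication genes were called higher. The 8 mitosis genes became 2 without IRI 24 h library 2 or without Control library 3, 3 without Control library 2, 5 without IRI 24 h library 3 or with the replicate block, and 16 with the sham-arm controls. The 13 replication genes became 22 with the sham-arm controls and 8 without Control libraries 1 and 4. Ccnd1, 1 of 2 replication genes lower than in Control, was called higher against the sham-arm controls. Top2a, the topoisomerase of dividing cells, was at 14.6, 26.5, 11.1 and 12 CPM at 24 h, against 37.4, 146, 148 and 155 CPM at 6 h (log2 fold change −2.93 ± 0.44, adjusted p = 2.3e-05), and in Control it was at 8.61 ± 3.60 CPM (mean ± SD, n = 4). Its 24 h level was not called against Control (0.89 ± 0.43, or 2.61 with the sham-arm controls, adjusted p = 6.2e-05). Cdc20 and Ccnb1, which act at the exit from and the entry to mitosis, had 24 h levels that were not called against Control, and both lay below 6 h, by −4.16 ± 0.49, adjusted p = 1.1e-06 for Cdc20 and −3.91 ± 0.56, adjusted p = 1.3e-05 for Ccnb1. Ube2c, a partner of CDC20 in mitotic exit, was also below 6 h (−2.68 ± 0.41, adjusted p = 3.1e-05) and above Control (1.37 ± 0.41, adjusted p = 0.0099, or 2.81 with the sham-arm controls), although the adjusted p against Control was 0.079 without IRI 24 h library 2.

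A pair of replication genes was called higher than Control and not called against 6 h. Mcm3, of the replicative helicase, was at 27.8, 48.9, 24.5 and 24.7 CPM at 24 h, against 8.04, 7.4, 6.24 and 8.95 CPM in Control (log2 fold change 2.03 ± 0.38, adjusted p = 1.4e-04, or 3.17 with the sham-arm controls). Uhrf1, which maintains DNA methylation at replication forks, was at 30.9, 54.6, 29.8 and 33.9 CPM at 24 h, against 4.72, 3.88, 2.22 and 4.34 CPM in Control (log2 fold change 3.29 ± 0.39, adjusted p = 3.4e-07). The difference between 24 h and 6 h was not called for either (log2 fold change −0.78 ± 0.36, adjusted p = 0.11 for Mcm3 and −0.85 ± 0.35, adjusted p = 0.071 for Uhrf1). Without library 1 of the 6 h group it was called for Uhrf1 (−0.99 ± 0.36, adjusted p = 0.044). Library 2 was the highest of the 24 h group for Mcm3, Uhrf1, Top2a, Ube2c, Ccnb1 and Cdc20. In time order, mean Top2a was 8.61 ± 3.60 CPM in Control, 121 ± 56.2 CPM at 6 h, 16.1 ± 7.12 CPM at 24 h and 39.7 ± 19.0 CPM at 48 h (SD, n = 4 each). The mean was highest in the libraries labelled 6 h, labels that were not checked; tubule cells are usually described as dividing later than this after IRI.

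**Figure D4:**
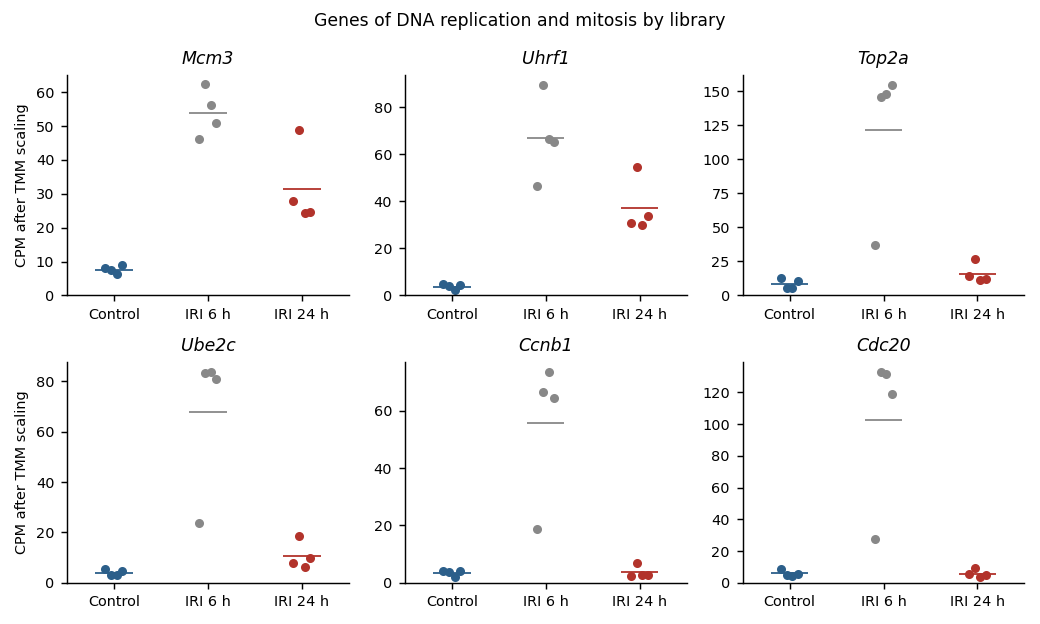
CPM after TMM scaling of 6 cell cycle genes in the 4 libraries each of Control, IRI 6 h and IRI 24 h; points are libraries and lines are means. Each gene is highest at 6 h on average, and at 24 h Ccnb1 and Cdc20 lie in the range of Control while Mcm3 and Uhrf1 lie above it.

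Fibroblast and matrix genes were below their 6 h level in 12 of 17 tested cases (median −1.82) and above it in none. Of 52 genes of oxidative phosphorylation, 20 were higher and 12 lower than at 6 h, or 16 and 13 without library 1 of the 6 h group.

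Surgery without ischaemia also changed the kidney. Of 19582 genes, 9.11% were called 24 h after sham surgery against the sham-arm controls, 2.38% higher and 6.73% lower. Of the genes tested in both arms, 277 were higher after both IRI and sham surgery, 7.64% of the 3626 rises after IRI and 61.0% of the 454 rises after sham surgery. On the lower side 666 were shared, 19.8% of the 3356 falls after IRI and 51.2% of the 1302 after sham surgery. A further 273 genes rose after IRI and fell after sham surgery, and 42 did the reverse. The difference between the 2 responses, each taken against its own unoperated kidneys, was called for 24.4% of genes, with 13.8% more positive and 10.5% more negative after IRI. Unlike levels in the 2 sets of unoperated kidneys enter this difference.

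The S3 list set the 2 kinds of surgery apart in all 16 of its members, whose IRI response was lower in each case. Their median after sham surgery was −0.20. Other tubule and metabolic lists were lower after sham surgery too. The sham median was −0.91 for S1 and S2 markers, of which 16 of 19 responded more negatively after IRI. For xenobiotic enzymes it was −1.17, with 11 of 28 more negative after IRI and 5 more positive. Glucose production and ammonia handling had −0.66, with 10 of 16 more negative and 1 more positive. The tricarboxylic acid cycle list had −0.61, with 6 of 18 more negative. Slc22a19, an organic anion carrier of S3, was at 4.46, 5.89, 6.17 and 5.04 CPM at 24 h, against 124, 139.9, 152 and 126 CPM in Control (log2 fold change −4.64 ± 0.40, adjusted p = 3.6e-09). On a scale fitted to both tables it was at 263, 261, 268 and 223 CPM 24 h after sham surgery, against 154, 110.3, 143 and 106 CPM in the sham-arm controls, a rise (log2 fold change 0.99 ± 0.28, adjusted p = 0.022). The difference of the responses, IRI minus sham, was −5.57 ± 0.44, adjusted p = 1.1e-10 on the log2 scale. Egf, the growth factor precursor of the thick ascending limb, was at 12.5, 10.9, 12.3 and 9.56 CPM at 24 h, against 1096, 1127, 1381 and 1138 CPM in Control (log2 fold change −6.71 ± 0.33, adjusted p = 3.7e-12). It was at 443, 484, 352 and 518 CPM 24 h after sham surgery, against 573, 558, 514 and 477 CPM in the sham-arm controls, which was not called (−0.24 ± 0.23, adjusted p = 0.66), and the difference of the responses was −6.42 ± 0.36, adjusted p = 1.9e-13. The histidine-degrading enzyme gene Uroc1 (−5.51 ± 0.81, adjusted p = 3.9e-06) and the matrix gene Tnn (−6.20 ± 0.89, adjusted p = 2.9e-06) were among the largest negative differences, as were Chst3 (−5.73 ± 0.86, adjusted p = 5.3e-06), a chondroitin sulfotransferase gene, and the carrier gene Slc22a26 (−5.67 ± 1.01, adjusted p = 6.2e-05).

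Among the positive differences, 20 of 24 keratin and injury genes responded more after IRI, and their sham median was 0.32. The cytokine gene Clcf1, whose rise after IRI is given above, was at 28.4, 26.6, 17.8 and 18.9 CPM 24 h after sham surgery, against 14.6, 17.8, 20.2 and 15.9 CPM in the sham-arm controls, and the difference was 4.61 ± 0.35, adjusted p = 6.0e-11. Clcf1 was lower in Control than in the sham-arm controls, and against the latter its log2 fold change after IRI was 2.67. The responses also differed by 5.40 ± 0.80, adjusted p = 4.3e-06 for Fgg, 4.68 ± 0.90, adjusted p = 1.7e-04 for Serpina3n and 5.35 ± 0.71, adjusted p = 8.7e-07 for Lrg1. Gpx1 went opposite ways: it rose after IRI and was at 64.0, 60.5, 95.8 and 105 CPM 24 h after sham surgery, against 220.3, 292, 274 and 289 CPM in the sham-arm controls, a fall (log2 fold change −1.72 ± 0.21, adjusted p = 9.2e-07), and the difference of the responses was 3.37 ± 0.29, adjusted p = 3.1e-10. Genes of oxidative phosphorylation had a median of −0.71 after sham surgery, and 26 of 52 had a more positive response after IRI while 3 had a more negative one. The median transcript length of these genes was 717 bases. Across all genes with a length, the trend after sham surgery ran opposite to that after IRI. Its median was −0.10 in the shortest of 5 bins and 0.15 in the longest. Within the list the rho of length with the sham response was −0.40. The part of transcript length in the difference of the responses was not tested.

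Other genes changed after both. The MHC class II gene H2-Ab1, which fell after IRI, was at 23.8, 9.78, 16.9 and 18 CPM 24 h after sham surgery, against 68.8, 52.2, 69.5 and 50.6 CPM in the sham-arm controls (log2 fold change −1.82 ± 0.33, adjusted p = 3.0e-04), and the difference of the responses was not called (0.02 ± 0.45, adjusted p = 1). The log2 fold change after sham surgery was −2.0 ± 0.23, adjusted p = 5.7e-07 for Fbp1 and −2.63 ± 0.41, adjusted p = 5.0e-05 for Slco1a1, and for Slco1a1 the difference of the responses was not called (−0.94 ± 0.56, adjusted p = 0.24). The replication genes Mcm3 (1.49 ± 0.36, adjusted p = 0.0052) and Uhrf1 (2.34 ± 0.39, adjusted p = 9.6e-05) rose after sham surgery as well, and the differences of the responses were not called (0.59 ± 0.49, adjusted p = 0.45 for Mcm3 and 1.0 ± 0.53, adjusted p = 0.18 for Uhrf1).

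**Figure D5:**
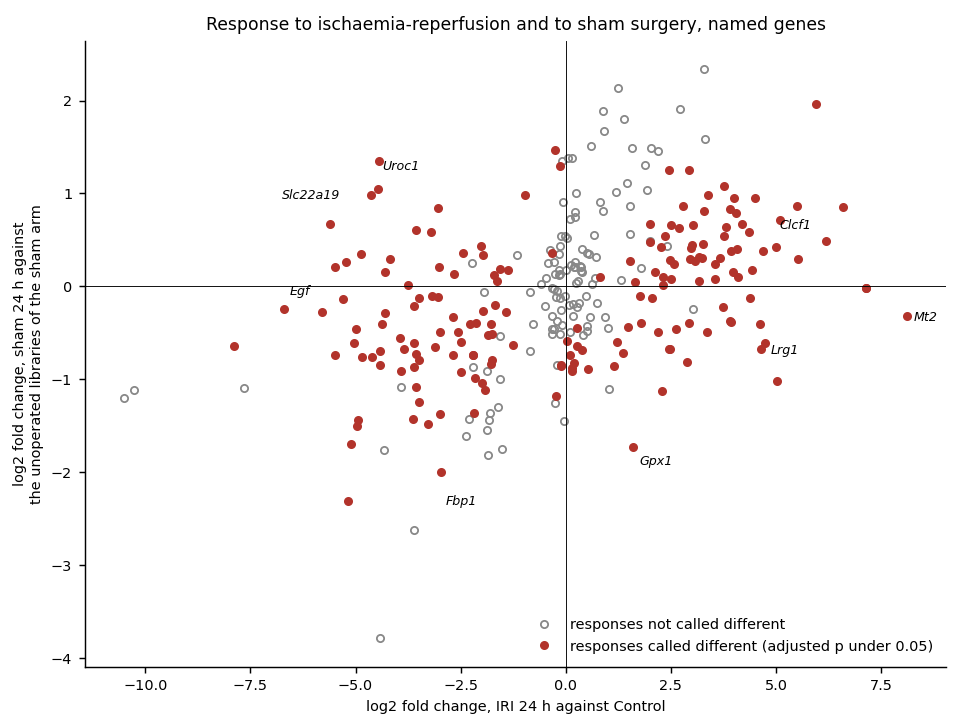
Log2 fold change 24 h after sham surgery against the sham-arm controls (vertical axis) and 24 h after IRI against Control (horizontal axis) for the genes named by the rule; each point is a gene, filled where the difference of the 2 responses was called, and genes under a mean of 0.5 CPM in the sham-arm controls are not drawn. Egf and Mt2 lie far out along the horizontal axis and near 0 on the vertical one, Slc22a19 lies below 0 after IRI and above 0 after sham surgery, and Fbp1 lies below 0 after both.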

How the data were processed

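Total RNA of whole kidneys was sequenced after RNeasy extraction and a standard Illumina library preparation, per the labels' protocols. The deposited tables hold raw read counts per gene name, made with HTSeq on GRCm39 (mm39), with DESeq2 also named, per the submitters' processing notes; the aligner, the versions and the strand setting were not given in the sources used here, so reads of a gene and of an overlapping or antisense gene cannot be told apart. Repeated lines of a name were collapsed, and 93 names were left out because their counts disagreed between the deposited tables, stood in 1 table only, were repeated with other counts or matched those of another name. This left 55774 names, and for 11 of them, whose 6 h counts equalled those of another group, no 6 h value was used. Library totals are given in the report; their number of counts and 4 libraries a group set the precision.

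Counts were tested with edgeR 4.0.16 (R 4.3.3), with TMM scaling, filterByExpr and the quasi-likelihood test with Benjamini-Hochberg adjustment, over all groups of the time course in a single fit. Adjusted p-values in the text come from this test, over all genes tested. Values of IRI 24 h with the sham-arm controls in place of Control come from a fit of those libraries alone. Standard errors are the size of a fold change over the square root of its F statistic. The response difference was fitted over the time course and sham tables together, each response against its own unoperated kidneys. CPM were computed after TMM scaling. Alternatives were DESeq2 1.42.0, other size factors, no filter, fits of fewer groups, a replicate block, each library left out, and the sham-arm controls. The test was checked on simulated data. No set test was run. Named genes, of which the text describes a part, were the 12 largest rises and falls past the threshold whose log2 CPM averaged 3 or more and whose groups did not overlap, up to 4 called and 2 other members of each list, and the 6 largest rises and falls of the other comparisons; Chac1, Fgf21, Nupr1 and Pycr1 were added for their promoters, after their values were seen. The members and the 53 lists were chosen with earlier results of these data known. Promoters came from RefSeq tables on GRCm38.p6, lengths and GC content from the annotation of GRCm38, by gene name.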

Additional observations from a re-analysis of the deposited data

Results flagged for a closer look

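In a group of 4 libraries, a library was singled out where its gap to the nearest of the others took up most of the group's range; chance does this in about 1 in 20 groups, and the genes named here give many groups. At 24 h, library 2 stood above the others for Fxyd4 (297 CPM), Gata3 (48.6 CPM), S100a9 (23.8 CPM), Krt5 (168 CPM), Krt14 (98.0 CPM), Uhrf1 (54.6 CPM), Mcm3 (48.9 CPM), Ccnb1 (6.92 CPM) and Nupr1 (142 CPM), and below them for Serpina3n (122 CPM) and Fgg (255 CPM). Library 1 of the 24 h group stood above the others for Slc22a7 (22.2 CPM) and Gdf15 (255 CPM) and below them for Gpx6 (1.78 CPM) and Abcc3 (22.9 CPM), and library 4 stood below them for Erbb3 (43.4 CPM).

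Among Control libraries, library 3 stood high for Egf (1381 CPM) and Ccl28 (89.3 CPM), library 4 was low for Pvalb (22.3 CPM) and high for Cldn4 (35.7 CPM) and Abcc3 (5.46 CPM), library 1 was high for Esm1 (51.1 CPM) and Mlkl (3.57 CPM), and library 2 was low for Cdkn1a (11.3 CPM). None of these libraries reached the range of the 24 h group in the gene named.

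The response to IRI differed from the response to sham surgery, by a test of the difference itself, for 4772 genes. Among the genes named for it, the log2 difference was −6.42 for Egf, −6.20 for Tnn, −5.73 for Chst3, −5.67 for Slc22a26, −5.57 for Slc22a19 and −5.51 for Uroc1, and 5.40 for Fgg, 5.35 for Lrg1, 4.68 for Serpina3n, 4.61 for Clcf1 and 3.37 for Gpx1. The 93 names outside the comparisons, left out for the reasons given, held up to 32.6% of the counts of a 24 h library.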

How the results depend on the processing

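The counts of called genes depended on which libraries shared the estimate of spread. Against Control, 6982 genes were called (3626 higher, 3356 lower); leaving the 48 and 72 h libraries out of the fit gave 11262 (5801 higher, 5461 lower), of which 6842 were called in both, and a fit of IRI 24 h and Control alone gave 11563 (5892 and 5671). Against 6 h, the 4789 calls became 9449 (4196 higher, 5253 lower) without the 48 and 72 h libraries, and 8261 (4072 and 4189) with the groups compared alone. The 4772 calls of a difference from the sham response became 8339 (4599 and 3740) with only the groups compared. The cause was not tested.

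Setting IRI 24 h against the sham-arm controls, in a fit of those libraries alone, gave 9611 calls. Of 128 named genes followed through that alternative, 7 changed sign: Slc4a9 to −0.42, Esm1 to 0.12, Pdha1 to 0.035, Sdhd to 0.10, Snhg20 to −0.038, Firre to −0.68 and Lgals4 to −0.57. Among the same 128, the calls of Elf5, Gata3, Podxl, Fbln5 and Pycr1 were lost there. Other list members named above also lost their call or were called in the opposite direction. Among all genes tested, 336 rises and 135 falls were called in the opposite direction. Leaving out a library gave 6046 to 6256 calls against Control, 3753 to 4823 against 6 h and 4149 to 4505 for the difference from sham. DESeq2 gave 7645 calls against Control, and the fit without Control libraries 1 and 4, an alternative added after seeing the data as was leaving out 48 and 72 h, gave 5124. Replicate numbers did not pair the libraries: correlations of same-numbered deviations lay between −0.058 and 0.015, and 1 of 4 libraries correlated best with its own number. With the number as a block, 6766 genes were called against Control (3491 higher, 3275 lower), 4488 against 6 h and 4683 for the difference from sham. Depth limits genes under about 1 CPM, such as Fgf21.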

Other observations

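Several of the largest changes lay outside the gene groups described. Abca13, a large member of the ABC transporter family, was at 2.38, 2.31, 2.48 and 2.36 CPM at 24 h, against 106, 98.0, 115 and 113 CPM in Control (log2 fold change −5.49 ± 0.68, adjusted p = 6.6e-07). A1cf, which encodes an RNA-binding partner of the cytidine deaminase APOBEC1, was at 2.83, 0.897, 1.42 and 3.50 CPM at 24 h, against 62.8, 71.3, 72.4 and 67.0 CPM in Control (log2 fold change −4.99 ± 0.79, adjusted p = 1.9e-05, or −2.58 with the sham-arm controls). The methyltransferase-like gene Mettl7a2 was at 3.27, 1.79, 3.26 and 2.78 CPM at 24 h, against 116, 96.1, 111 and 95.3 CPM in Control (log2 fold change −5.22 ± 0.57, adjusted p = 1.1e-07). The rule that named these 3 genes takes only genes whose groups do not overlap. None of the 3 was called after sham surgery, where the log2 fold changes were −0.74 ± 0.46, adjusted p = 0.42 for Abca13, −0.46 ± 0.57, adjusted p = 0.77 for A1cf and 0.26 ± 0.38, adjusted p = 0.81 for Mettl7a2.

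Ppm1j, a protein phosphatase gene, was among the 12 largest rises, at 65.7, 80.6, 46.7 and 49.0 CPM at 24 h, against 1.21, 2.40, 1.66 and 2.1 CPM in Control (log2 fold change 5.03 ± 0.30, adjusted p = 2.3e-11, or 3.34 with the sham-arm controls). It fell after sham surgery (log2 fold change −1.02 ± 0.31, adjusted p = 0.035). Every 24 h library lay above every Control library, as the rule that named this gene requires.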
